A study of Rattus norvegicus with 30 samples.

Results

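The cytosolic ribosomal proteins are the protein parts of the ribosome that translates nuclear messenger RNA, and their transcripts were followed here in rat liver cells exposed to phenobarbital. A gene was taken if a probe set with 1 gene symbol named it Rpl or Rps followed by a digit, or Rplp0, Rplp1, Rplp2 or Rpsa. Kinases of the Rps6k family and the 5 like-genes with an l after the number (Rpl3l, Rpl7l1, Rpl26l1, Rpl39l1 and Rps27l) were left out. Where a gene had several probe sets, the one with the highest mean log2 signal over all arrays stood for it. This gave 43 genes of 14217 with a 1-symbol probe set on the array, 29 of the large and 14 of the small subunit. Rplp1, Rplp2, Rps19 and Rps27a have no 1-symbol probe set in the annotation used, so no value is given for them.

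The cells were cryopreserved primary hepatocytes of male Sprague Dawley rats, the parenchymal cells of the liver, dosed on the third day of culture. The 6 groups were vehicle, 300 µM phenobarbital and 3000 µM phenobarbital, each harvested after 24 h or 48 h, with 5 culture wells and 5 arrays per group. The labels call the wells biological replicates but number no animals, so p-values measure the spread between wells, and age is not given. Phenobarbital is a barbiturate that induces liver drug metabolism through the receptor CAR, and the study asked how the dose and the exposure time change gene expression.

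A ribosome is built in the nucleolus, where assembly factors fold ribosomal RNA around the ribosomal proteins, and is finished in the cytoplasm. The small subunit decodes the messenger and the large subunit joins the amino acids and holds the exit tunnel. The mRNAs of these proteins are among the most abundant in a cell and begin with a terminal oligopyrimidine (TOP) tract, a cytidine followed by a run of pyrimidines, through which mTORC1 and Larp1 control their translation. Such control acts on the loading of mRNAs with ribosomes, which an array of total RNA does not measure.

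Promoter entries of RefSeq (assembly GRCr8) were found for 38 of the 43 genes. A TOP-like run was searched on the gene's own strand, whatever base precedes it. It is a C followed by at least 4 further bases that are each C or T. It began within 5 bases of the first listed start in 22 of these 38 genes, or 57.9%, against 17% of 27457 genes of all kinds searched in the same way. Exactly at the start it was found in 12 of 38 genes, or 31.6%, against 2.63% of all. The lines give 15 bases before and 15 bases from the annotated start for the 3 genes that rose most at 3000 µM after 48 h (Rpl23, Rpl35a and Rpl14), for Rpl19 and Rplp0, and for Rps15 and Rps9, which were lower at 24 h, with the run in capitals. Rpl6 is shown as a gene that rose and has no run in the window.
Rpl23, chr10:83272170-83272199, minus strand: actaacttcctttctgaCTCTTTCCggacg
Rpl35a, chr11:81235007-81235036, minus strand: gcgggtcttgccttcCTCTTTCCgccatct
Rpl14, chr8:129163605-129163634, plus strand: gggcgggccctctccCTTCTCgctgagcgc
Rpl19, chr10:83519049-83519078, plus strand: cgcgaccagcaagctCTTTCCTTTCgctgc
Rplp0, chr12:46718376-46718405, minus strand: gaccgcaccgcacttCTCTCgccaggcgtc
Rps15, chr7:10068101-10068130, minus strand: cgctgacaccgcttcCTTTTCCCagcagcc
Rps9, chr1:74430423-74430452, minus strand: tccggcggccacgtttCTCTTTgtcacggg
Rpl6, chr12:41011676-41011705, minus strand: tatttttacatcactagatggcgggtgaaa
The capitals start at the annotated base in Rpl35a, Rpl14, Rpl19, Rplp0 and Rps15, and 1 or 2 bases after it in Rps9 and Rpl23. In all of these but Rpl23 the base just before the capitals is also C or T. The capitals thus mark where the search matched, and the pyrimidines can begin further upstream. A missing run says only that these letters are not at this annotated start.

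The ribosomal protein transcripts were near the top of the range on every array. The median of their log2 signals lay at the 99.5th to 99.7th percentile of all probe sets of an array other than controls, tested or not. Of the 43 genes, 38 were among the 1660 brightest of the tested probe sets. Of the 43 genes, 41 passed the filter on low signal, and Rpl28 and Rps13 did not. Among those that passed, Rpl30, Rpl39 and Rps4y2 were read by dim probe sets, with mean log2 signals of 8.53, 10.53 and 11.73, while the other 38 genes lay between 15.15 (Rps15) and 16.31 (Rps29). Signals of different probe sets do not rank their transcripts. The dim probe sets were also less precise: the standard error of a change was 0.254 for Rpl30 and 0.308 for Rpl39, against 0.0507 for Rpl35a.

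All 30 arrays had the same trimmed mean signal, 1500.6 to 1500.7, and medians between 349 and 424.9. Of 7 hepatocyte markers with a probe set 7 passed the filter, against 4 of 6 for stellate cells or fibroblasts, 3 of 5 for macrophages, and 1 each of 5 for endothelial cells, 4 for cholangiocytes and 5 for lymphocytes. The summed signal of the 5 macrophage markers with a probe set was 1690 to 2340 in vehicle wells at 48 h and 2150 to 3560 at 3000 µM. Of the 3 that passed the filter, 1 was called higher and 0 lower there, with changes from -0.0274 to 0.805, so the rise was not shared by all. The part of macrophages in the results was not tested. The summed signal of the hepatocyte markers at 24 h was 387000 to 529000 in vehicle wells, above the 318000 to 379000 at 300 µM and the 346000 to 379000 at 3000 µM. At 48 h it was 344000 to 396000 in vehicle wells, 326000 to 380000 at 300 µM and 333000 to 599000 at 3000 µM. At 3000 µM and 24 h 4 of the 7 hepatocyte markers were lower and 0 higher (median -0.25), against 14.8% and 17.3% of all probe sets. After quantile normalization 2 were lower (median -0.068), against 14.4% of all. Without 2 arrays described next 5 were lower and 1 higher (median -0.17), against 2531 and 2981 of all 16596 probe sets. At 48 h 2 were lower and 0 higher (median 0.10, and -0.014 without those arrays), against 19.9% and 19.5% of all probe sets. As deposited, the medians of the hepatocyte markers at 3000 µM against vehicle had the signs of the ribosomal protein medians given below. The signs differed at 300 µM against vehicle at 48 h (hepatocyte markers -0.0205, ribosomal proteins 0.0597). They also differed at 3000 µM against 300 µM at 24 h (-0.0235 and 0.0205). The part of the hepatocyte markers in the results was not tested.

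Before any comparison, 2 arrays have to be set apart. Hybridization controls were read as the median deviation of each control from its own median over the 30 arrays. Vehicle array 1 at 24 h and array 4 of 3000 µM at 48 h stood 0.925 and 1.39 log2 units high, while the other arrays lay between -0.215 and 0.103. On the same 2 arrays the ribosomal protein genes stood high as deposited, by a median of 0.253 and 0.366 log2 units, against 0.109 on the next highest array. After quantile normalization, which gives every array the same distribution of signals, the medians of these 2 arrays were -0.043 and -0.021. The plot of arrays shows that the level of the whole ribosomal protein set on an array moves with the scaling. Between arrays of 1 group the genes moved together: the correlation of a pair of ribosomal protein genes, taken on deviations from group means over the 30 arrays, had a median of 0.713 over 820 pairs as deposited and of 0.107 after quantile normalization. The points of each correlation share the array and its scaling factor, and no test is attached. Quantile normalization also gives every array the same brightest signals, and these genes lie near the top of that range. Smaller medians on the 2 arrays and less shared movement are thus in part built into the method, and how large this part is was not tested. The counts of ribosomal protein genes called are therefore given below also after quantile normalization and without these 2 arrays.

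**Figure D1:**
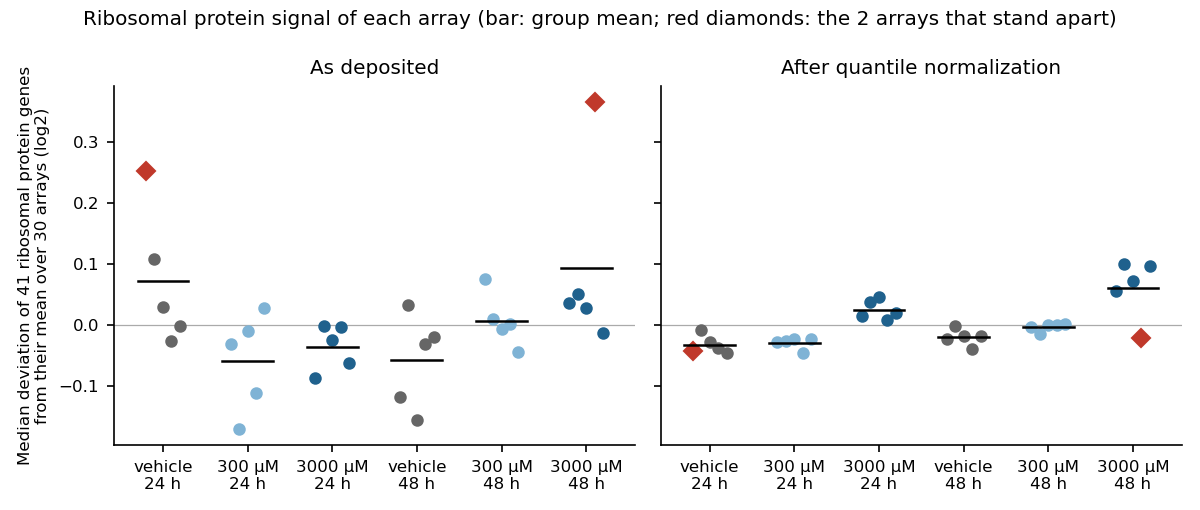
Median deviation of 41 ribosomal protein genes from their mean over 30 arrays (log2 units) for each array by group, as deposited (left) and after quantile normalization (right); bars are group means and red diamonds the 2 arrays whose hybridization controls stand apart. As deposited these 2 arrays sit at 0.253 and 0.366, and after normalization at -0.043 and -0.021.

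At 3000 µM and 48 h, the limma test called 17 of 41 ribosomal protein genes higher than in vehicle wells and 0 lower at an adjusted p under 0.05, and 24 did not pass. The median change was 0.15 log2 units, and 37 of 41 genes were above 0. Over all 16596 probe sets tested, 19.5% were called higher and 19.9% lower, with a median change of -0.00083. Among the 1660 brightest probe sets, the range in which 38 of the genes lie, 549 were higher and 427 lower, with a median of 0.046. Of the 17 genes, 14 were among 28 of the large subunit and 3 among 13 of the small subunit (Rps3, Rps9 and Rpsa), and the difference between the subunits was not tested. Leaving out 1 array at a time gave 12 to 20 genes higher. In these runs 10 of the 17 genes kept their call each time, and 7 lost it at least once. Without array 4 of 3000 µM the calls of Rpl5, Rpl7, Rpl13a, Rpl27, Rpl34 and Rpsa were lost (limma adjusted p = 0.0702, 0.188, 0.062, 0.195, 0.0835 and 0.169). Without vehicle array 3 those of Rpl5, Rpl7, Rpl27, Rpl34 and Rpsa were lost (0.0542, 0.0785, 0.115, 0.0736 and 0.102), and without vehicle array 1 those of Rpl7, Rpl27, Rps3 and Rpsa (0.0746, 0.101, 0.0516 and 0.0747). Rpl27 was also lost without vehicle array 4 or 5 or treated array 2 (0.0581, 0.05 and 0.0711), Rpl7 without vehicle array 5 (0.0613) and Rpsa without vehicle array 4 (0.0789). The large subunit genes were Rpl4, Rpl5, Rpl6, Rpl7, Rpl13a, Rpl14, Rpl18, Rpl19, Rpl22, Rpl23, Rpl27, Rpl34, Rpl35 and Rpl35a. In 8 of the 41 genes, all of the large subunit, the 5 treated arrays lay above all 5 vehicle arrays, as they did in 11.5% of all probe sets tested.

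Rpl23, a protein of the face that the large subunit turns to the small one, showed the largest rise. Its signals were 49130, 56440, 48390, 47470 and 56100 in the vehicle wells at 48 h and 65770, 68100, 67240, 75820 and 64660 at 3000 µM. The groups did not overlap, and the highest treated value came from array 4. The change was 0.41 log2 units (SE 0.0725, adjusted p = 2.4e-05, limma), a rise of 32.8%. At 300 µM the 48 h signals were 64270, 61010, 59450, 60470 and 54520, which overlapped with vehicle at the lowest well only, and the change of 0.22 did not pass the test (adjusted p = 0.136). Without the 2 arrays that stand apart Rpl23 was higher in that comparison too (adjusted p = 0.0184), the only member called there.

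Rpl35a, which is mutated in some families with Diamond-Blackfan anaemia, a failure of red cell production, rose next. Its vehicle signals at 48 h were 47170, 52580, 45480, 48350 and 47980, and those at 3000 µM were 60660, 57580, 59300, 63300 and 55600. All treated wells were above all vehicle wells, and the change was 0.30 (SE 0.0507, adjusted p = 1.5e-05). Rpl14, a large subunit protein at the solvent side, had 37710, 41140, 38220, 39040 and 41300 in vehicle wells and 44760, 54600, 43710, 50860 and 43740 at 3000 µM. The groups again did not overlap, with 2 treated wells well above the other three, and the change was 0.26 (SE 0.0532, adjusted p = 0.00015). Its mean log2 signal was 15.27 ± 0.0604 (SD, n = 5) in vehicle wells and 15.53 ± 0.147 (SD, n = 5) at 3000 µM.

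Rpl18, Rpl22 and Rpl6, all proteins of the large subunit, rose by 0.22, 0.21 and 0.20 log2 units with no overlap between the groups. For Rpl22, which also binds a small RNA of Epstein-Barr virus, the vehicle signals were 39570, 44580, 37530, 41010 and 41140 and the treated signals 44980, 49230, 45930, 48600 and 46090. The highest vehicle well was only just below the lowest treated well. The other 11 genes called higher changed by 0.14 (Rpsa) to 0.21 (Rpl19).

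Genes of named regions and complexes of the ribosome moved as follows at 3000 µM and 48 h. In the 5S particle, in which Rpl5 and Rpl11 bind 5S RNA and which can restrain the p53 inhibitor Mdm2, Rpl5 rose by 0.18 (SE 0.0592, adjusted p = 0.0152) and Rpl11 changed by 0.10 (adjusted p = 0.277). The Rpl5 signals were 57300, 66940, 56250, 61370 and 62740 in vehicle wells and 65920, 67150, 66150, 80790 and 65390 in treated wells, so that 1 vehicle well lay within the treated range. Of the P stalk, which recruits elongation factors, Rplp0 changed by 0.18 (adjusted p = 0.0586) and Rpl12 did not pass either. Around the exit tunnel, 3 of 6 genes rose (Rpl4, Rpl19 and Rpl35), and in the head of the small subunit 1 of 5, Rps3. Rpl13a, which can leave the ribosome and silence translation of inflammatory mRNAs, rose by 0.19 (SE 0.0606, adjusted p = 0.0123). Rps6, the substrate of the S6 kinases, changed by 0.11 (adjusted p = 0.172), and Rpsa, also known as the laminin receptor precursor, rose by 0.14 (adjusted p = 0.0368). Of 6 genes mutated in Diamond-Blackfan anaemia, Rpl35a and Rpl5 rose and Rpl11, Rpl26, Rps24 and Rps29 did not pass the test.

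The median at 48 h was above 0 in each scaling and smaller in part of them. After quantile normalization 16 genes were higher and 0 lower, with a median of 0.079, against 20.6% and 19.7% of all probe sets; all 16 are among the 17, and Rps3 was the gene lost (adjusted p = 0.0586). Without the 2 arrays that stand apart, 13 were higher, 12 of them among the 17, with a median of 0.081, and Rpl37a was the gene added. With quantile normalization of the remaining 28 arrays 24 were higher, which included all 17, against 3476 of all 16584 probe sets tested there. Over 21 settings run on all members, 10 genes were higher in every setting: Rpl4, Rpl6, Rpl14, Rpl18, Rpl19, Rpl22, Rpl23, Rpl35, Rpl35a and Rps9. The 3 dim probe sets did the opposite of the bright ones, with changes of -0.67 for Rpl39 (adjusted p = 0.087), -0.31 for Rpl30 (adjusted p = 0.362) and -0.11 for Rps4y2 (adjusted p = 0.466), none past the test. Rpl39 signals reached from 502.9 to 2247 within the treated group and from 1445 to 2261 in vehicle wells. Of the genes with a TOP-like run near the start, 9 of 20 were called higher (median 0.18). Of those without the run it was 6 of 16 (median 0.14), and of those with no promoter entry 2 of 5 (median 0.15).

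**Figure D2:**
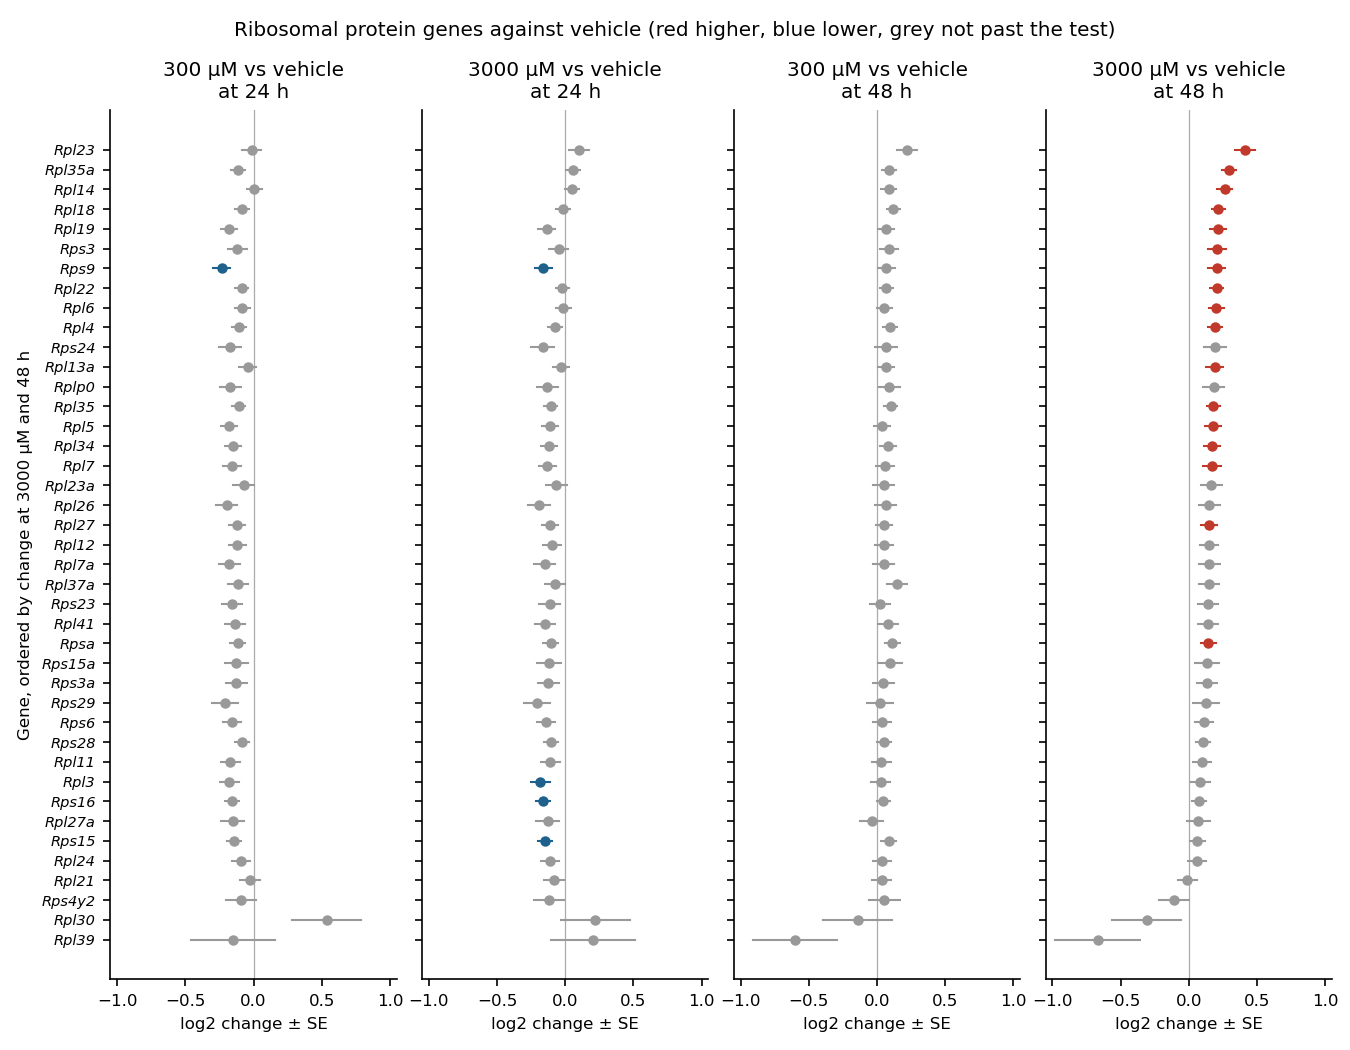
Log2 change against vehicle (points, with bars of 1 SE) of 41 ribosomal protein genes for both doses and times, ordered by the change at 3000 µM and 48 h; red is higher, blue lower and grey not past the test. At 3000 µM and 48 h 17 genes are red, and at 24 h 4 are blue.

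**Figure D3:**
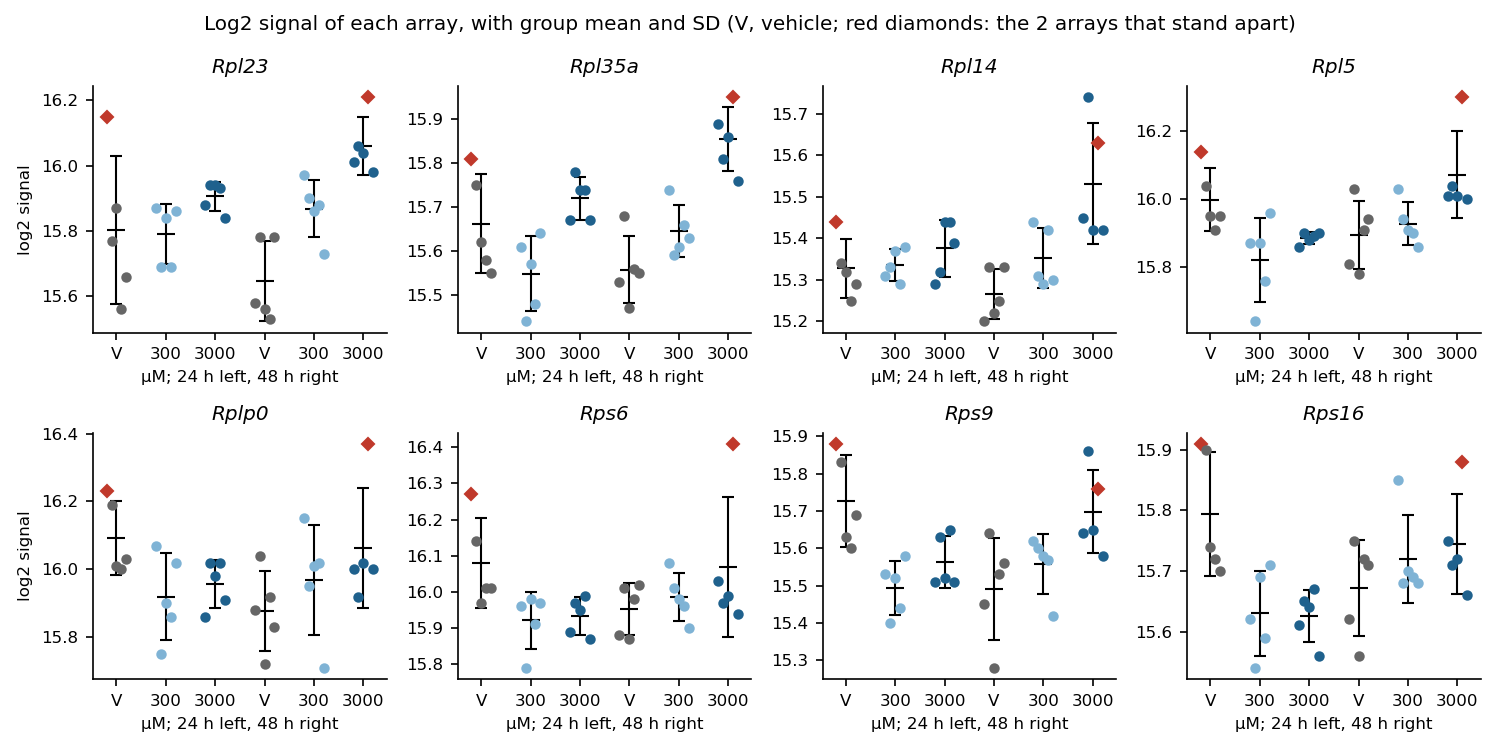
Log2 signal of each array as deposited for 8 ribosomal protein genes in the 6 groups, with group mean and SD (n = 5); the vertical axes differ and do not start at 0. Rpl23, Rpl35a and Rpl14 lie above vehicle in all 5 wells at 3000 µM and 48 h, and the red diamonds mark the 2 arrays that stand apart.

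At 24 h the sign of the ribosomal protein change at 3000 µM depended on the scaling. As deposited, 4 of 41 genes were lower and 0 higher, with a median of -0.11 log2 units and 36 of 41 below 0, against 17.3% of all probe sets called higher and 14.8% lower, and a median of 0.0093 over all. Among the 1660 brightest probe sets 347 were higher and 505 lower (median -0.050). The 4 were Rpl3, which lies at the peptidyl transferase centre, Rps15 and Rps16 of the small subunit head, and Rps9, which lines the entry channel of the mRNA. After quantile normalization 12 genes were higher and 0 lower, with a median of 0.063, against 17% and 14.4% of all probe sets. None of the 4 passed the test there, and Rpl3 changed sign, from -0.18 (adjusted p = 0.0389) to 0.025 (adjusted p = 0.49).

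The signals of Rpl3 were 90100, 80350, 76520, 73040 and 74010 in the vehicle wells at 24 h and 68690, 70850, 67930, 71560 and 66990 at 3000 µM. The groups did not overlap, and the highest vehicle value was that of array 1. Those of Rps16 were 61530, 61010, 54740, 53830 and 53080 in vehicle wells and 49920, 51590, 51040, 52280 and 48460 at 3000 µM. These did not overlap either, and the change was -0.16 (SE 0.0508, adjusted p = 0.0123). Rps15 changed by -0.15 (SE 0.052, adjusted p = 0.0271) and Rps9 by -0.16 (SE 0.0625, adjusted p = 0.0451), and Rps9 overlapped with vehicle. Without the 2 arrays that stand apart 4 genes were lower, 3 of them the same (Rpl3, Rps15 and Rps16), and Rpl23 was higher (0.19, limma adjusted p = 0.0108). Of all 16596 probe sets 2531 were lower and 2981 higher there. Single arrays mattered here: 1 gene was lower without vehicle array 1 or without treated array 1, and 2 without vehicle array 2 or treated array 3 or 5. With array medians set equal, 0 genes passed in either direction and the median was -0.046.

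The 12 genes higher at 24 h after quantile normalization were Rpl5, Rpl6, Rpl11, Rpl12, Rpl13a, Rpl14, Rpl18, Rpl22, Rpl23, Rpl35a, Rps15a and Rps23, with changes of 0.080 (Rpl5) to 0.28 (Rpl23). Over the 21 settings, 10 genes were lower in at least 1 and 12 higher in at least 1, and none was called in both directions. Rpl23 had signals of 72480, 55870, 59810, 48450 and 51810 in vehicle wells at 24 h and 60180, 62690, 63000, 62270 and 58650 at 3000 µM. As deposited its change of 0.10 did not pass (adjusted p = 0.305), and vehicle array 1 was above every treated well.

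**Figure D4:**
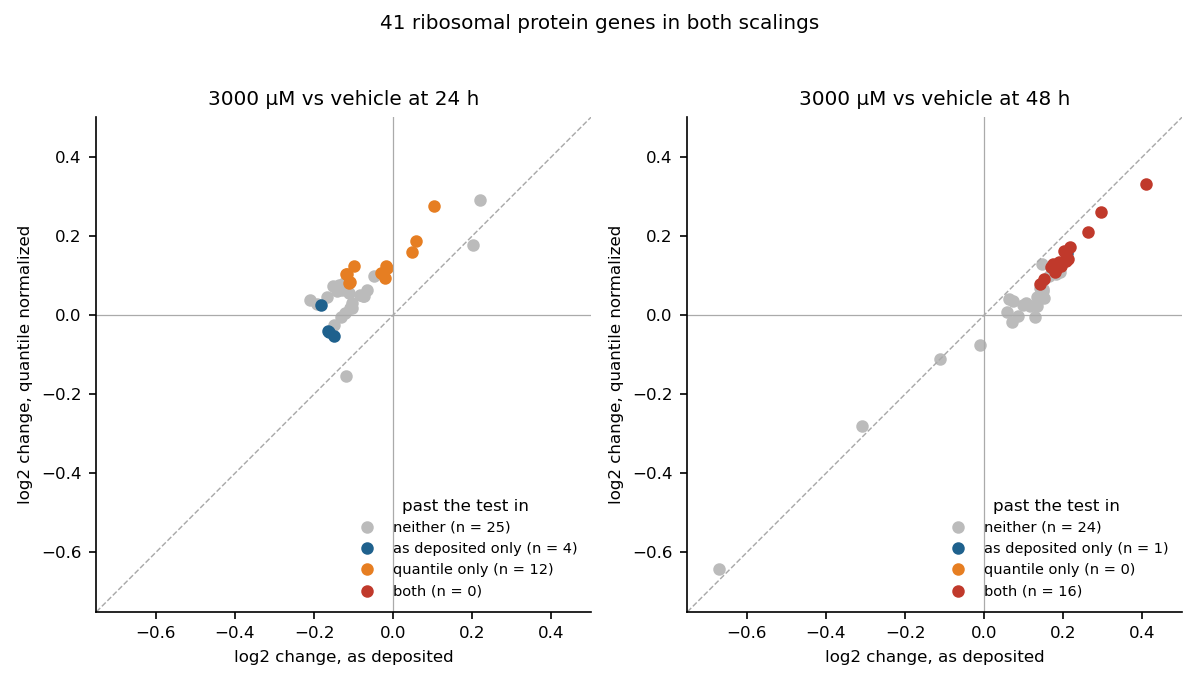
Log2 change at 3000 µM against vehicle of 41 ribosomal protein genes as deposited (horizontal) and after quantile normalization (vertical), at 24 h (left) and 48 h (right); colours give the scaling in which a gene passed the test and the dashed line is equality. At 24 h the 4 genes lower as deposited and the 12 higher after normalization are different genes, and at 48 h 16 genes passed in both.

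At 300 µM almost no ribosomal protein gene passed the test. At 24 h Rps9 was lower (-0.23, SE 0.0625, limma adjusted p = 0.0332) and 0 were higher, against 1.27% of all probe sets lower and 1.72% higher. The median was -0.13, with 39 of 41 genes below 0. An unadjusted p under 0.05 was reached by 21 of the 41 genes, against 2413 of all 16596 probe sets tested. The Rps9 signals were 60140, 58230, 50570, 49690 and 52960 in vehicle wells and 47470, 43140, 47090, 44350 and 48860 at 300 µM, without overlap. The call was lost after quantile normalization (median -0.0018) and without the 2 arrays that stand apart, where 0 genes passed, and also when vehicle array 1 or 2 or 300 µM array 2, 3 or 4 alone was left out. At 48 h 0 of 41 genes passed in either direction, with a median of 0.060, against 0.813% of all probe sets higher and 0.723% lower. An unadjusted p under 0.05 was reached by 4 of the 41, against 1973 of all 16596 probe sets. After quantile normalization 0 passed too (median 0.015), and without the 2 arrays that stand apart 1 did, Rpl23. Both doses at a time are set against the same vehicle wells, so the signs they share at 24 h are not independent.

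The direct comparison of the doses takes no vehicle means, though vehicle wells enter the shared estimate of the spread. In it Rpl35a passed at both times. At 24 h its signals were 50050, 44450, 48730, 45850 and 50930 at 300 µM and 52310, 56130, 54630, 54640 and 52270 at 3000 µM, with no overlap. The difference was 0.17 (SE 0.0507, adjusted p = 0.0109), and no other gene was called, against 13.9% of all probe sets higher and 12.2% lower. At 48 h Rpl35a was higher by 0.21 (SE 0.0507, adjusted p = 0.00165), and Rpl23, Rpl14, Rpl6 and Rpl22 were higher by 0.19, 0.18, 0.15 and 0.14. That made 5 of 41 genes higher and 0 lower, against 17.9% and 16.9% of all probe sets. After quantile normalization 6 of 41 genes were higher at 24 h, near the 13.8% of all probe sets. At 48 h 15 of 41 were higher, against 18.4% of all, and the 5 genes were among the 15. Without the 2 arrays that stand apart the counts were 1 at 24 h and 4 at 48 h, where Rpl6 was lost and the median went from 0.098 to 0.016. Of all 16596 probe sets 2617 were then higher at 24 h and 2987 at 48 h. The count at 48 h was 2 or 3 without 300 µM array 3, 4 or 5 or 3000 µM array 2 or 4, and 9 without 3000 µM array 5. Rpl35a passed in all 21 settings at both times.

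In vehicle wells alone, Rps9 (-0.23, adjusted p = 0.0178) and Rpl18 (-0.16, adjusted p = 0.0383) were lower at 48 h than at 24 h and 0 genes were higher, against 3.15% and 4.05% of all probe sets. The median was -0.12 as deposited and 0.019 after quantile normalization, where 0 genes passed, and 1 was lower without the 2 arrays that stand apart. The count was also 0 without 24 h array 1 or 2 or 48 h array 3, 1 without 24 h array 3 or 48 h array 1 or 4, and 5 without 48 h array 2. The effect of 3000 µM was larger at 48 h than at 24 h for 8 genes (Rpl4, Rpl5, Rpl18, Rpl19, Rpl22, Rpl34, Rpl35 and Rps9) and smaller for 0, against 1.38% of all probe sets larger and 2.77% smaller. Rps9 had the largest such difference, 0.37 (SE 0.0883, adjusted p = 0.0153), from -0.16 at 24 h to 0.21 at 48 h. None of the 8 passed after quantile normalization, 2 did with quantile normalization of the remaining 28 arrays (Rpl35 and Rps9), and 3 did without the 2 arrays that stand apart (Rpl19, Rpl35 and Rps9). The count of 8 fell to 3 without vehicle array 1 or 2 at 24 h, 3000 µM array 1 or 4 at 24 h, or vehicle array 1 or 3 at 48 h. It was 4 or 5 without 5 other arrays (at 24 h vehicle 3 and 3000 µM 2 and 5, at 48 h vehicle 4 and 5), and 14 without vehicle array 4 at 24 h or vehicle array 2 at 48 h. For the 300 µM effect 0 genes differed between the times, as did 0% of all probe sets in the higher and 0% in the lower direction. An unadjusted p under 0.05 was reached there by 24 of 41 genes, against 1251 of all 16596 probe sets.

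Other probe sets of the same genes gave partly different values. A second probe set of Rpl7 rose by 0.55 at 3000 µM and 48 h (SE 0.131, adjusted p = 0.00107), against 0.17 for the brighter one, and a second one of Rpsa rose by 0.18 (adjusted p = 0.00069), while another one changed by -0.10 (adjusted p = 0.488). A dim second probe set of Rps24 rose by 0.41 at 24 h (adjusted p = 0.00423), where the bright one changed by -0.17 (adjusted p = 0.123). The 33 probe sets that carry the symbols of several genes, at least 1 of them ribosomal, were not members. Of these 11 were higher and 0 lower at 3000 µM and 48 h (median 0.14), against 19.5% and 19.9% of all probe sets. At 24 h 0 were higher and 4, or 12.1%, lower (median -0.11), against 17.3% and 14.8% of all. After quantile normalization 11 were higher and 0 lower at 48 h (median 0.053), against 20.6% and 19.7% of all. At 24 h 6 were then higher and 1 lower (median 0.046), against 17% and 14.4%, so the 6 of 33 higher are near the share of all. Leaving out the 2 arrays that stand apart, 7 of the 33 were higher and 0 lower at 48 h, against 3210 and 3387 of all 16596 probe sets. At 24 h 0 were higher and 5 lower, against 2981 and 2531 of all. The 7 higher at 48 h and the 5 lower at 24 h are near the shares of all. Rack1, a scaffold protein of the small subunit outside the naming rule, rose by 0.31 at 48 h (SE 0.0773, adjusted p = 0.00163).

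Most genes of a list of ribosome builders were called higher at 3000 µM at both times. For this and the lists that follow, 17.3% of all probe sets were higher and 14.8% lower at 24 h, and 19.5% and 19.9% at 48 h. Without the 2 arrays that stand apart, 2981 of 16596 probe sets were higher and 2531 lower at 24 h, and 3210 and 3387 at 48 h. Of 60 ribosome biogenesis genes tested, 41 rose and 0 fell at 24 h (median 0.37), and 41 rose and 1 fell at 48 h (median 0.35). Nolc1, a nucleolar chaperone of small nucleolar ribonucleoproteins, rose by 1.06 at 24 h (SE 0.0909, adjusted p = 6.2e-11) and by 1.09 at 48 h (SE 0.0909, adjusted p = 1.4e-11). Rrp15, needed for the large subunit, and Heatr1, a factor of ribosomal RNA transcription and processing, rose by 1.10 and 0.88 at 24 h. Utp20, of the small subunit processome, and Sdad1, of large subunit export, rose by 1.12 and 0.89 at 48 h. Between 37 and 45 of the 60 rose at 24 h over the scalings and sets of arrays tried, and between 40 and 42 at 48 h.

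Of the initiation factors, which bring the ribosome to the mRNA, 15 of 29 rose and 2 fell at 24 h (median 0.18), and 18 rose and 2 fell at 48 h (median 0.25). Eif2b3, a subunit of the exchange factor of eIF2, rose by 0.48 at 24 h, and Eif3i and Eif3c, subunits of eIF3, by 0.47 and 0.45 at 48 h. Among 11 other genes whose mRNAs carry a TOP tract, 3 rose and 1 fell at 24 h, and 7 rose and 0 fell at 48 h (median 0.22). Eif4b, a helper of the helicase eIF4A, rose by 0.38 and then by 0.51, the elongation factor subunit Eef1d by 0.23 and 0.49, and Eef1b2, an exchange factor of elongation factor 1, by 0.42 at 48 h. Eef2, the translocation factor, fell by 0.23 at 24 h. After quantile normalization, 6 of the 11 rose and 1 fell at 24 h, and without the 2 arrays that stand apart 5 rose and 2 fell. Of the initiation factors 16 rose in each of these runs at 24 h, and 18 at 48 h.

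Among 24 genes that control translation, 9 rose and 2 fell at 24 h, and 8 rose and 4 fell at 48 h. Without the 2 arrays that stand apart it was 9 and 2 at 24 h, and 7 and 5 at 48 h. Sesn2, a leucine sensor that restrains mTORC1, rose by 0.79 and then by 1.23, and Trib3, a target of the stress factor Atf4, by 0.93 and 0.97. Ppp1r15a, a phosphatase subunit that reverses eIF2 phosphorylation, rose by 1.15 at 48 h, and Eef2k, the kinase of Eef2, by 1.00 at 24 h. Myc, a transcription factor for ribosome biogenesis genes, rose by 0.65 at 24 h (SE 0.091, adjusted p = 8.0e-07) and by 0.78 at 48 h (SE 0.091, adjusted p = 2.0e-08). These lists were compiled with results of these data known, and the counts are a description.

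Mitochondrial ribosomal proteins, which are also nuclear-encoded but serve the ribosome inside the organelle, were called in both directions. Of 73 tested, 14 rose and 7 fell at 3000 µM and 24 h (median 0.075), and 33 rose and 8 fell at 48 h (median 0.15). The share called higher was 19.2% at 24 h, near the 17.3% of all probe sets, and 45.2% at 48 h, against 19.5%. With the 2 arrays that stand apart left out, 17 rose and 8 fell at 24 h, and 41 rose and 4 fell at 48 h. Mrpl38 rose by 0.80 at 48 h, Mrpl47 by 0.40 and 0.52, and Mrpl36 fell by 0.53 at 24 h and by 0.46 at 48 h. Of the excluded like-genes 3 of 5 passed the filter. Rpl7l1, which takes part in ribosome assembly, rose by 0.38 at 24 h (adjusted p = 8.9e-07) and by 0.39 at 48 h (adjusted p = 3.6e-07). Rps27l, a p53 target, rose by 0.35 at 48 h (SE 0.124, adjusted p = 0.0249).

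**Figure D5:**
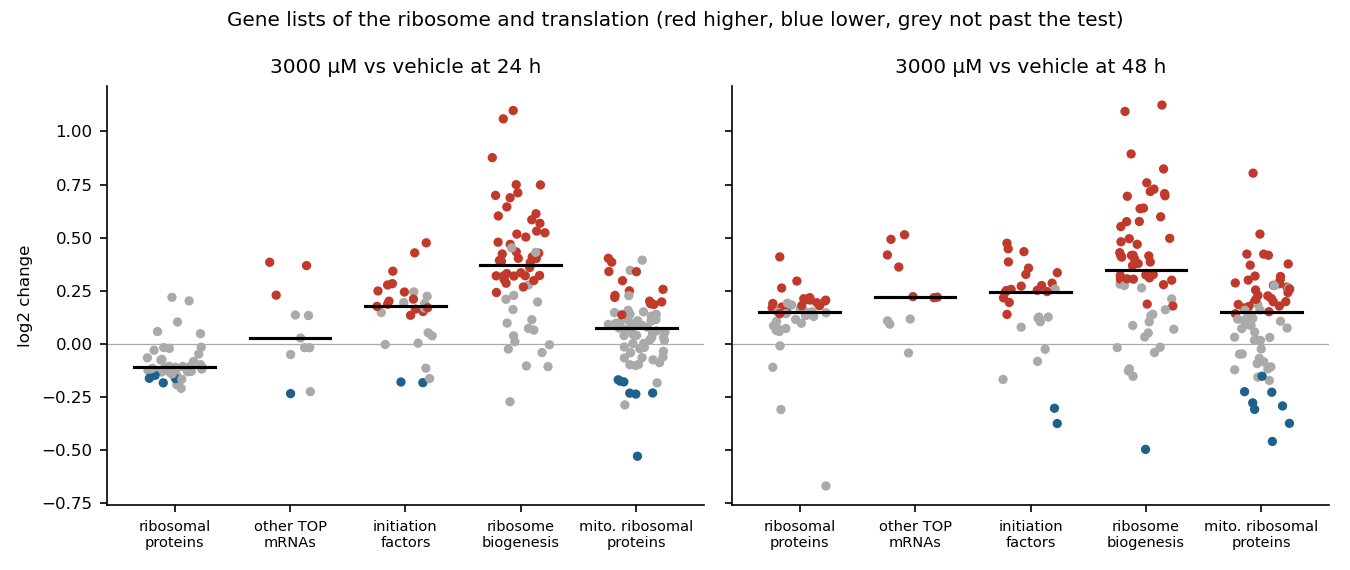
Log2 change at 3000 µM against vehicle for each tested gene of 5 lists at 24 h (left) and 48 h (right); red is higher, blue lower, grey not past the test, and the black line is the list's median. Ribosomal proteins have medians of -0.11 and 0.15, and ribosome biogenesis genes of 0.37 and 0.35.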

How the data were processed

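The authors deposited probe set intensity values on a linear scale from a GeneChip rat genome array, made with MAS5 per the submitters' processing notes, with no version given. The deposited intensities have the same trimmed mean on all 30 arrays (2% left out at each end), so each array was scaled by 1 factor. Gene names came from the platform annotation supplied, which is old. Signals were put on the log2 scale with no constant added. Of 31099 probe sets, 57 were controls, and 16596 whose highest group mean reached a log2 signal of 8.58 (the median of all values, a signal of 384) were tested. limma 3.58.1 in R 4.3.3 (lmFit, contrasts.fit, eBayes with trend and robust) fitted the 6 group means, with 2-sided tests and Benjamini-Hochberg adjustment over all tested probe sets; rose, higher, fell and lower mean an adjusted p under 0.05. The code was tested on simulated data. The number of arrays limits the precision, and in bulk RNA fewer cells and less RNA per cell cannot be told apart.

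The members and lists were chosen with earlier results of these data known. Genes named are Rplp0, Rplp1, Rplp2, Rpsa, Rps6, Rpl5, Rpl11, Rps27a, Rpl13a and Rps19, up to 6 called rises and falls per comparison with groups that do not overlap, and up to 3 called genes of each other list; members outside this rule were named after their values were seen, to account for each call. Alternatives were quantile normalization, equal array medians, other filters, an added constant of 16, array weights, smaller fits, a block, second probe sets, and leaving out arrays.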

Additional observations from a re-analysis of the deposited data

Results flagged for a closer look

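In 108 groups of 5 arrays checked for a value far from the others, 14 values stood apart by Dixon's criterion, which chance meets in about 1 in 20 groups. Array 4 of 3000 µM at 48 h gave 8 of them. On it the median deviation of the ribosomal protein genes was 0.366 log2 units as deposited, against -0.014 to 0.051 on the other arrays of the group. The log2 signals on this array were 16.31 for Rpl11, 16.54 for Rpl3, 16.3 for Rpl5, 15.98 for Rpl6, 16.37 for Rplp0, 16.41 for Rps6 and 15.79 for Rpsa. In the other groups, Rpl13a stood high at 15.97 on vehicle array 1 at 24 h and Rps16 at 15.85 on array 1 of 300 µM at 48 h. Rpl18 was low at 15.71 on array 3 and Rps9 at 15.42 on array 5 of the same group. After quantile normalization the median deviation was -0.046 on array 4 of 300 µM at 24 h and -0.016 on array 2 of 300 µM at 48 h, both close to the other arrays of their groups in size.

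The effect of 3000 µM differed between 48 h and 24 h in the interaction term of limma for 4 of the named genes. The difference was 0.23 for Rpl18, 0.23 for Rpl22, 0.29 for Rpl5 and 0.37 for Rps9, with the effect at 48 h the higher in each. Rps9 alone passed also after quantile normalization without the 2 arrays that stand apart.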

How the results depend on the processing

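Of 654 values of counts and medians under other settings, 559 kept their direction and stayed within the limits set (1.5 times for a count, 1 SD between replicates for a median), and of 634 values of named genes 467 kept their call, 165 lost it and 2 reversed, both Rpl3 at 3000 µM and 24 h (0.025 after quantile normalization, 0.0098 with the 2 arrays left out too). The groups share no replicate number in the labels, and nothing there says that arrays are paired; the title numbers run from 1 to 30 in 5 sets of all 6 groups, and these sets as a block moved 2 counts by over 1.5 times, to 1 lower for vehicle over time and 4 higher for the difference of the 3000 µM effect.

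At 3000 µM and 24 h, quantile normalization gave 12 higher and 0 lower (median 0.063), equal array medians 0 lower, no filter 2 lower, only the groups compared 9 lower, array weights 8 lower, second probe sets 1 higher, and leaving out the 2 arrays 1 higher; both together gave 11 higher and 0 lower (median 0.058). At 3000 µM and 48 h only the groups compared gave 11 higher and array weights 1 lower. At 300 µM and 24 h the 1 lower gene became 0 after quantile normalization (median -0.0018), with equal medians, with no filter and without the 2 arrays, alone or with quantile normalization (median -0.0029). At 300 µM and 48 h 1 gene was higher with only the groups compared, array weights or without the 2 arrays, also with quantile normalization.

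Between doses at 24 h, quantile normalization gave 6, only the groups compared 2, and quantile normalization without the 2 arrays 9 higher. At 48 h the counts were 15 with quantile normalization, 3 with no filter, 2 with only the groups compared, 2 with array weights and 19 with quantile normalization without the 2 arrays. For vehicle over time the lower count was 0 with quantile normalization (median 0.019), 1 with no filter, 1 with only the groups compared, 4 with array weights, 1 without the 2 arrays and 0 with both changes (1 higher, median 0.012). For the difference of the 300 µM effect the median was 0.027 with quantile normalization and 0.026 with the 2 arrays out too. For that of 3000 µM the count was 0 with quantile normalization (median 0.036), 0 with equal medians, 3 with no filter, 2 with only the groups compared, 4 with array weights, 3 without the 2 arrays (median 0.15) and 2 with both changes (median 0.063). The cause was not tested.

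Leaving out 1 array at a time gave 12 to 20 higher at 3000 µM and 48 h (0 to 1 lower), 0 to 1 higher and 1 to 5 lower at 24 h, 0 to 1 lower at 300 µM and 24 h, 2 to 9 higher and 0 to 1 lower between doses at 48 h, 0 to 5 lower for vehicle over time, and 3 to 14 for the difference of the 3000 µM effect. Quantile normalization without the 2 arrays and a limit to members with a mean log2 signal of at least 13 were chosen after seeing the data.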
